A study of Mus musculus with 3 samples.

Results

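Brown adipocyte (BA) nuclei of untreated interscapular brown adipose tissue (BAT) were described gene by gene. They were selected on their own measured counts of unique molecular identifiers (UMIs, 1 per captured RNA molecule): at least 4 UMIs over Adipoq, Plin1, Pparg, Cidea and Ppara, at least 4 times as many as over the 6 endothelial genes Pecam1, Flt1, Kdr, Ptprb, Cyyr1 and Adgrl4 and over the 4 pericyte genes Pdgfrb, Notch3, Abcc9 and Kcnq5, and 0 UMIs of the white adipocyte genes Slc7a10, Trhde, Nnat and Retn. Of 11792 nuclei kept (at least 200 detected genes, at most 50% mitochondrial UMIs), 4162 met these criteria, which is 35.3% (exact Clopper-Pearson 95% interval 34.4 to 36.2).

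The study profiled nuclei of the floating layer of digested BAT, a mixture of adipocytes and fragments of vessels, from adult C57Bl6 mice of wild-type (WT) genotype. It holds 3 single-nucleus libraries made on the BD Rhapsody system, which captures nuclei in microwells: untreated, sham operation and denervation. Per the methods, all mice were male, tissue of several mice was pooled, and denervation was on one side. Nuclei were sorted by a DNA dye with doublets gated out. The study's supplement describes the denervated library as sampled 3 days after surgery, with tamoxifen given. With 1 library per condition there was no replicate, so no test was run and every interval given covers counting error alone.

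Brown adipocytes burn fuel for heat. Their mitochondria carry uncoupling protein 1 (Ucp1), which lets protons return across the inner membrane without making ATP, and noradrenaline from sympathetic nerves starts this through beta-adrenergic receptors, cAMP and lipolysis. They also take up glucose and rebuild their lipid droplets by de novo synthesis of fatty acids, which is why enzymes of synthesis and of oxidation are found in the same cell.

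The nuclei outside the selection fell into 5 classes by the first criterion they failed. No adipocyte UMI was found in 3341 nuclei and 1 to 3 in 3337. A further 647 had enough adipocyte UMIs but too many endothelial ones, 66 had too many pericyte UMIs and 239 had a white adipocyte UMI. Nuclei with the mirrored criteria served as references: 4232 endothelial cell (EC) nuclei and 448 pericyte (PC) nuclei. BA nuclei were the deeper ones, with a median of 1870 UMIs (quartiles 1390 and 2340) and 1189 genes, against 734 UMIs and 527 genes in all other kept nuclei, 740 UMIs in EC nuclei and 827 in PC nuclei. They were 35.3% of the kept nuclei and held 54.8% of their UMIs. No doublet caller was run. The ratio criteria kept nuclei with a marked mixture out of the selection, but these nuclei stayed among the other kept nuclei. Of all barcodes, 251 were shared between the untreated and sham libraries and 253 between the untreated and denervated libraries. These were 1.83% and 1.85% of the smaller library of each pair, and 13 and 24 of them were BA nuclei in both. The number that unrelated libraries would share was not computed.

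**Figure D1:**
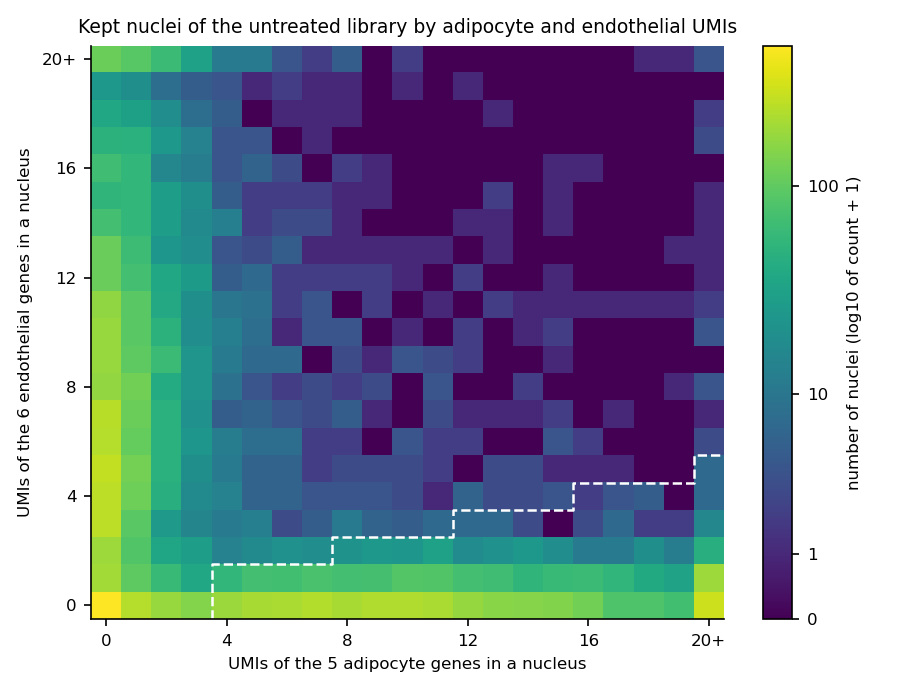
Number of kept nuclei of the untreated library (colour, log10 scale of count + 1) by UMIs of the 5 adipocyte genes (horizontal axis, 20 and more pooled) and of the 6 endothelial genes (vertical axis, 20 and more pooled). The dashed line bounds the area below which the adipocyte and endothelial criteria are met; 2679 of the 4162 BA nuclei lie on the lowest row, with no endothelial UMI, and nuclei with 4 or more adipocyte UMIs and many endothelial UMIs are sparse but present.

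By construction BA nuclei were rich in the 5 selecting genes, and these values are a description. A BA nucleus held between 4 and 53 adipocyte UMIs, with a median of 11. UMIs of 4 of the 5 genes were found in 1818 nuclei, of all 5 in 616 and of a single gene in 37. Pparg, the master transcription factor of fat cells, had 2336 CPM (UMIs of the gene per 1000000 UMIs, over the summed nuclei), the lipid droplet coat protein gene Plin1 had 1642, the lipid droplet gene Cidea 1413, the fatty acid sensing receptor gene Ppara 915 and the hormone gene Adipoq 212. Endothelial UMIs were absent from 64.4% of BA nuclei and pericyte UMIs from 93.1%, and the highest values in a nucleus were 8 and 5.

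The 195 BA nuclei with exactly 4 adipocyte UMIs had 5072 CPM of Fasn, 12297 of Scd1, 241 of Ucp1 and 236 of Kit. The 101 nuclei just outside, with 3 adipocyte UMIs and the other criteria met, had 4413 CPM of Fasn, 10792 of Scd1, 241 of Ucp1 and 279 of Kit. The values of Scd1 and Fasn were thus higher just inside the edge than just outside it, while Ucp1 was level and Kit was lower. Esrrg was also lower inside, at 830 against 867 CPM. The 238 nuclei with 5 adipocyte UMIs and the other criteria met had 4958 CPM of Fasn, 12042 of Scd1, 320 of Ucp1, 323 of Kit and 702 of Esrrg. Kit and Ucp1 were thus higher there than with 4. No counting intervals were computed for these values, so no trend is read from them. The groups with 4 and 3 adipocyte UMIs were shallow, with medians of 1170 and 978 UMIs.

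The label was checked on Ucp1, which the selection did not use (GRCm38 chr8:83290352-83298452). Ucp1 had 346 CPM in BA nuclei (95% Poisson interval 333 to 359), 135 in all other kept nuclei, 92.1 in EC nuclei and 39.5 in PC nuclei. Its log2 ratio of BA nuclei over the others was 1.35 (conditional binomial interval 1.24 to 1.46), and over nuclei with no adipocyte UMI it was 2.05. UMIs of Ucp1 were found in 37.2% of BA nuclei, and 6.82% of BA nuclei held 3 or more. After each nucleus was thinned to 800 UMIs, which left out 184 BA nuclei, 2442 EC nuclei and 207 PC nuclei, the share was 20.7% (19.4 to 21.96) of BA nuclei, 7.37% of EC nuclei (6.21 to 8.68) and 2.90% of PC nuclei (1.18 to 5.89). EC and PC nuclei should lack this gene, and their shares differed from each other. The part of free RNA in the share of BA nuclei was not tested. The 1871 barcodes with under 200 genes, which were not shown to be free RNA alone, had 103 CPM of Ucp1. Mitochondrial UMIs were 43.4% of their sum, against 3.12% in BA nuclei. This lowers the CPM of all other genes in that set, here and wherever it is given below. So the marker sat with the label, at a share that left most BA nuclei without a UMI of it at this depth.

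Markers of other cells were low in BA nuclei. The 12 endothelial markers that the selection did not use summed to 374 CPM in BA nuclei, 5279 in the other nuclei and 7757 in EC nuclei, and none was at 0. Kitl, which encodes stem cell factor, had 25.8 CPM in BA nuclei, against 1224 in EC nuclei and 673 in barcodes with under 200 genes. The 10 pericyte and smooth muscle markers summed to 228 CPM, against 10607 in PC nuclei, with Cspg4 at 88.6 CPM the largest of them. Fibroblast markers summed to 37.8 CPM, immune markers to 32.1 and skeletal muscle markers to 12.3. Schwann cell markers summed to 207 CPM in BA nuclei and 154 in the others, of which Mbp alone gave 127 while Sox10, which defines these glia, was at 1.01 CPM. The part of these RNAs in the results that follow was not tested.

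Across the table, 5362 genes had at least 50 CPM in BA nuclei or in the other nuclei and were not used to select. Of these, 931 were at least 2-fold higher in BA nuclei (17.4%) and 1134 at least 2-fold lower (21.1%), and the median log2 ratio was 0.13. The other kept nuclei still held nuclei with some adipocyte RNA, so ratios upward were bounded: against nuclei with no adipocyte UMI, 1345 of 5557 genes were 2-fold higher (24.2%) and 1425 lower (25.6%). Against EC nuclei 1495 of 5474 genes were higher (27.3%) and 1370 lower (25%), and against PC nuclei 1279 of 5611 were higher (22.8%) and 1398 lower (24.9%). The selection used these same counts, so the shares for each gene group below are read only beside 17.4% and 21.1%. They moved with the nuclei compared: against other nuclei matched on UMIs per nucleus (1961 in each set) 301 genes were at least 2-fold higher and 885 lower, the log2 ratio of Ucp1 was 0.88, and 0 lists had a median at least 2-fold higher, with 0.89 for fatty acid synthesis and 0.88 for thermogenic genes. Depth and adipocyte content of the other nuclei cannot be told apart in this matching, since nuclei with no adipocyte UMI had a median of 599 UMIs and those with 4 or more and too many endothelial ones 1414.

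**Figure D2:**
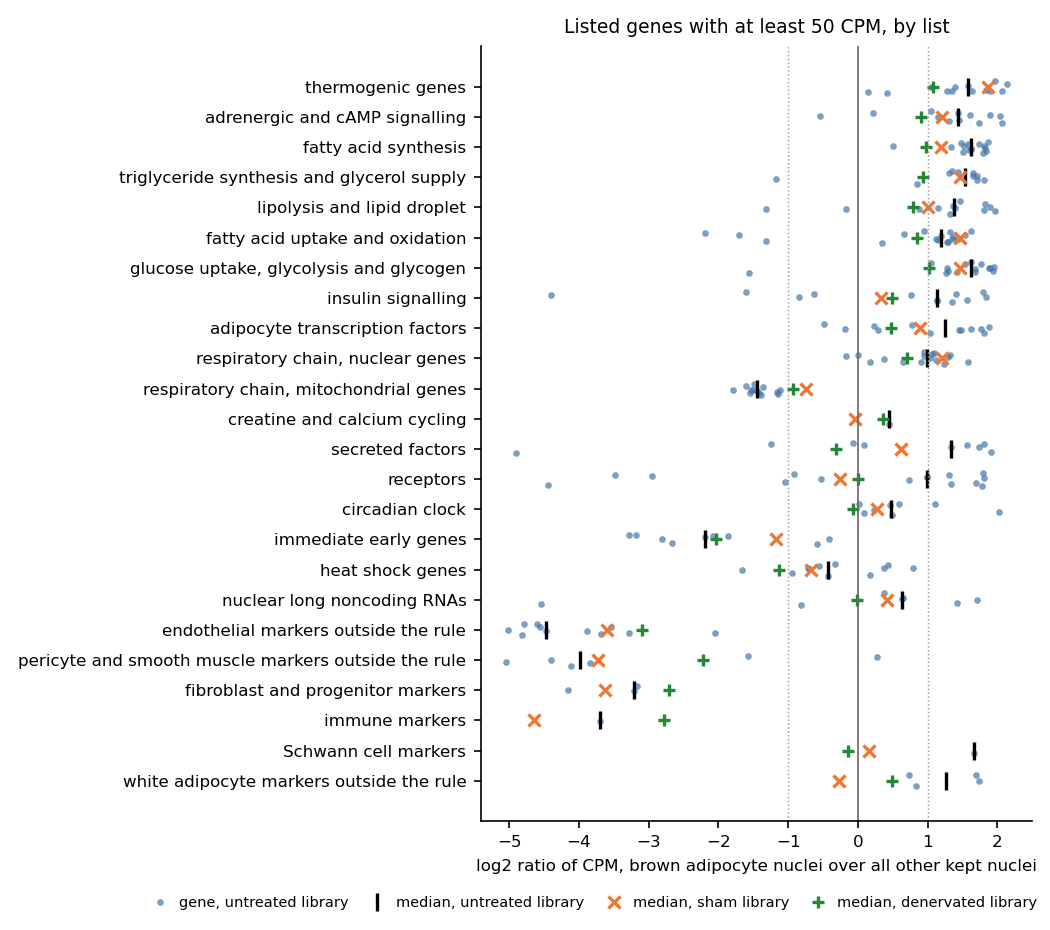
Log2 ratio of CPM in BA nuclei over all other kept nuclei (horizontal axis) for genes with at least 50 CPM, by gene list (rows). Blue points are genes of the untreated library, black bars the medians there, orange crosses and green plus signs the medians in the sham and denervated libraries; dotted lines mark 2-fold. Lists of fuel use and lipid synthesis sit to the right, near 1.6 for fatty acid synthesis, mitochondrially encoded genes and immediate early genes to the left.

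Thermogenic genes were higher as a group. Of 13 measured, 11 were at least 2-fold higher and 0 lower, with a median log2 ratio of 1.59. Esrrg, an orphan nuclear receptor that drives genes of oxidative metabolism, had 735 CPM against 167 (log2 2.14, interval 2.04 to 2.23), and 29.7 in nuclei with no adipocyte UMI. The coactivator genes Ppargc1b and Ppargc1a, which raise mitochondrial mass, had 1215 against 291 CPM (2.06) and 282 against 72.4 CPM (1.96). Ebf2, a factor of brown fat fate, had 946 CPM and the potassium channel gene Kcnk3 918 CPM, at log2 ratios of 1.28 and 1.64. PC nuclei had more Ebf2 than BA nuclei, 1658 CPM. The respiratory subunit genes Cox7a1 and Cox8b, which are abundant in brown fat, were within 2-fold at 0.14 and 0.41, and had 125 and 137 CPM in the barcodes with under 200 genes. Dio2, the enzyme that activates thyroid hormone, was under 50 CPM in both sets, at 21.5 and 5.97, and outside the counts.

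Genes listed for adrenergic and cAMP signalling were higher too. Of 12 measured, 10 were at least 2-fold higher and 0 lower, with a median of 1.44. Adrb3, the beta-3 adrenergic receptor of adipocytes, had 578 CPM against 212 in the others (1.45) and 47.6 in EC nuclei. Adra1a, an alpha-1 receptor, had 413 against 98.9 CPM (2.06). Prkar2b, a regulatory subunit of protein kinase A, had 1184 against 320 CPM (1.89), and Adcy10, the soluble adenylyl cyclase, 111 against 27.1 CPM (2.04). The phosphodiesterase gene Pde4d was higher at 1138 CPM against 461 (1.30), although PC nuclei had 1314. Gnas, the stimulatory G protein, was close in all sets, at 1646 and 1421 CPM (0.21).

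Enzymes of fatty acid synthesis were higher in BA nuclei. Of 15 genes, 14 were at least 2-fold higher and 0 lower, with a median of 1.62. Scd1, the desaturase that makes oleate, had 14127 CPM against 5593 (1.34) and gave more UMIs than any other protein-coding gene of BA nuclei. Acaca, which makes malonyl-CoA, had 6125 CPM against 1769 (1.79). Fasn, which builds palmitate, had 5614 against 1822 (1.62), and Acly, which cuts citrate into acetyl-CoA, had 4124 against 1234 (1.74). Acss2, which charges acetate, was at 3876 against 1069 CPM (1.86). Of the 2 lipogenic helpers that the study follows, Thrsp was at 2035 against 734 CPM (1.47) and the citrate carrier Slc25a1 at 484 against 169 CPM (1.52). Elovl5 was the member within 2-fold (0.51). Scd1 was also plentiful outside: EC nuclei had 3669 CPM and barcodes with under 200 genes 4346, so a UMI of Scd1 was found in 92.2% of thinned EC nuclei against 99.4% of thinned BA nuclei.

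Triglyceride assembly followed. Of 10 genes measured, 8 were higher and 1 lower, with a median of 1.54. Gpd1, which makes glycerol phosphate, had 2396 CPM against 764 (1.65), and the phosphatase gene Lpin1 had 1544 against 443 (1.80). Pck1 and Dgat2, for glyceroneogenesis and the last esterification step, had 980 and 935 CPM at 1.70 and 1.66. The lower gene was Aqp7, a glycerol channel, at 141 CPM against 317 (-1.17) and 447 in EC nuclei.

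Of 12 genes of lipolysis and the lipid droplet, 9 were higher and 1 lower, with a median of 1.38. Pnpla3, a patatin-like lipase, had 3512 CPM against 900 (1.96) and was found in 89.6% of thinned BA nuclei against 11.1% of thinned EC nuclei. Lipe, hormone-sensitive lipase, had 1458 against 566 CPM (1.37), and the droplet coat gene Plin2 had 932 against 374 (1.32). Mgll, monoglyceride lipase, went the other way with 586 against 1460 CPM (-1.32), and had 2011 in EC nuclei.

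Promoters of higher genes were searched for the cAMP response element, the site of CREB-family factors, because the sympathetic signal acts through cAMP. The letters TGACGTCA, read on both strands, were found in the 250 bases before the start of 21 of 982 RefSeq promoters of genes at least 2-fold higher (2.14%), of 143 of 5616 promoters of all genes tested (2.55%) and of 508 of 32851 promoters in all (1.55%). Share and background were close. Stretches around the match are shown for Pnpla3 and, chosen after their values were seen, for Ldah, a lipid droplet hydrolase gene, and Ogdh, a gene for a subunit of an enzyme complex of the citric acid cycle, with the element in capitals (GRCm38.p6, RefSeq, 5′ to 3′ on the gene's strand).
Pnpla3: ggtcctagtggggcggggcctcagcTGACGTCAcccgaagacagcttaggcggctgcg
Ldah: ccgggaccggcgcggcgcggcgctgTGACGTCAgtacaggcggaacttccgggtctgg
Ogdh: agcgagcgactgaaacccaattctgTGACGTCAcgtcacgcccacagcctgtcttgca
The Pnpla3 stretch is at chr15:84167745-84167802 (plus strand), the Ldah stretch at chr12:8208094-8208151 (plus strand) and the Ogdh stretch at chr11:6291521-6291578 (plus strand). Ldah had 173 CPM in BA nuclei against 85.9 in the others and Ogdh 928 against 342. The 9-letter estrogen-related receptor element TCAAGGTCA was found in 1 of 982 promoters of higher genes (0.102%), 9 of 5616 of genes tested (0.16%) and 127 of 32851 in all (0.387%). The DR1 element of nuclear receptors, a repeat of AGGTCA with 1 base between, was found in 0, 0 and 11 of these. A match is a run of letters and not a site shown to be bound.

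Uptake and oxidation of fatty acids split. Of 17 genes, 11 were higher and 3 lower, with a median of 1.19. The lower ones were the lipid carriers that capillaries also use: Cd36 had 1177 CPM in BA nuclei against 3819 in the others and 5453 in EC nuclei (-1.70), Fabp4 had 1097 against 2732 and 3724 (-1.32), and Fabp5 24.1 against 110 and 158 (-2.19). Lpl, lipoprotein lipase, was within 2-fold at 1583 and 1247 CPM (0.34). Several oxidation genes were higher: Acsl1, which activates fatty acids, had 748 against 293 CPM (1.35), and Slc25a20, the carnitine carrier, 439 against 152 (1.53). Hadha and Hadhb, the trifunctional protein, stood at 1.32 and 1.27. Cpt1a, a form of the entry enzyme found in many tissues, had 31 UMIs in BA nuclei, 3.92 CPM against 32.2 (-3.04), and with under 50 CPM in both sets it was outside the counts. Cpt1b was listed too, but the untreated counts hold no gene of that name, so it was not measured.

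**Figure D3:**
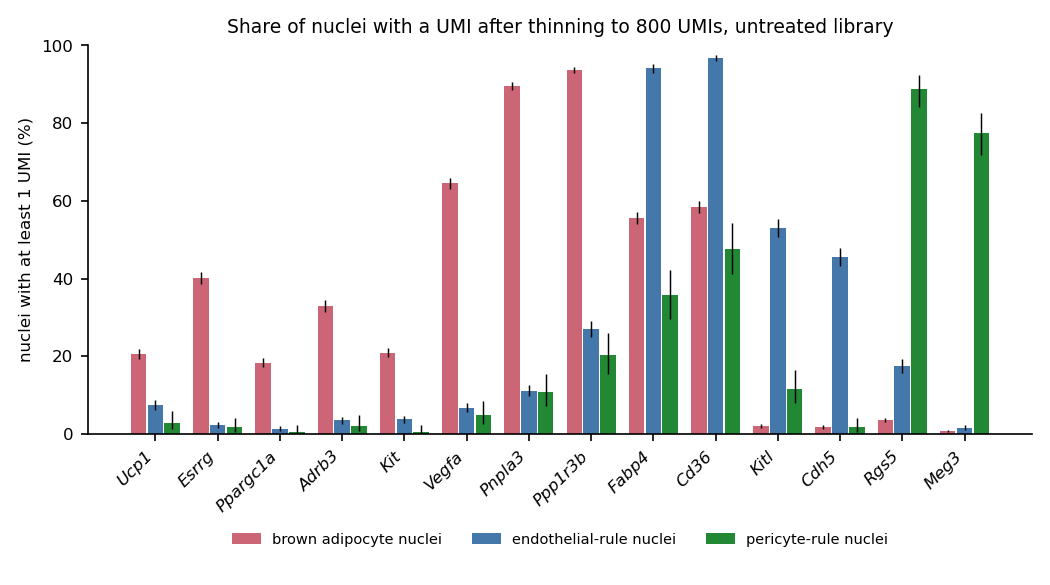
Percent of nuclei with at least 1 UMI of each gene after thinning every nucleus to 800 UMIs, in BA nuclei (3978), EC nuclei (1790) and PC nuclei (241); bars start at 0 and error lines are exact 95% intervals. Pnpla3 and Ppp1r3b are found in 89.6% and 93.7% of BA nuclei, Kitl and Cdh5 mainly in EC nuclei, and Rgs5 and Meg3 mainly in PC nuclei.

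Of 15 genes of glucose use and glycogen, 14 were higher and 1 lower, with a median of 1.62. Ppp1r3b, which targets protein phosphatase 1 to glycogen, had 4804 CPM against 1245 (1.95) and 412 in EC nuclei. Pygl and Gbe1, which break down and branch glycogen, had 1565 and 1250 CPM at 1.93 and 1.68. Hk2 and Slc2a4, the insulin-responsive hexokinase and glucose transporter, had 1175 and 705 CPM at 1.89 and 1.88. Hk1, the housekeeping hexokinase, was the lower gene, with 18.0 against 53.1 CPM (-1.57); it was counted through its level in the other nuclei.

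Of 12 insulin signalling genes, 7 were higher and 2 lower, with a median of 1.14. The PI3-kinase subunit gene Pik3r1 had 999 CPM against 453 (1.14). Tbc1d4, which holds back the glucose transporter until Akt acts on it, had 766 against 222 (1.79). Akt2 was higher at 543 against 205 CPM (1.40) while Akt1 was lower at 35.4 against 108 (-1.60). Grb10, an inhibitory adaptor, was lowest at 8.47 against 178 CPM (-4.39), and Grb14, its relative, was higher at 289 against 80.7 (1.84).

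Of 12 adipocyte transcription factor genes, 7 were higher and 0 lower, with a median of 1.25. Ebf1 and Nfia had 1772 and 1228 CPM at 0.28 and 0.78, and were also high elsewhere, Ebf1 at 3241 CPM in PC nuclei. The repressor gene Bcl6 had 1213 against 358 CPM (1.76). Thrb, a thyroid hormone receptor, had 467 against 127 CPM (1.88), while the other receptor gene Thra was at 258 and 293 (-0.18).

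Genes of the respiratory chain differed by genome. Of 16 nuclear genes, 8 were higher and 0 lower, with a median of 0.99: Atp5a1, a subunit of ATP synthase, had 1185 against 502 CPM (1.24), Sdha 529 against 248 (1.09), Cox6a1 478 against 423 (0.18) and Sdhb 374 against 152 (1.30). Of 13 mitochondrial genes, 0 were higher and 13 lower, between -1.11 for mt-Nd3 and -1.79 for mt-Nd6. Their median of -1.45 became -0.72, within 2-fold, when nuclei were limited to 10% mitochondrial UMIs, and 1 of 12 measured was lower in the sham library and 5 of 11 in the denervated library. Over all genes tested, 19.3% were lower in the sham library and 15% in the denervated library. Of the 16 nuclear genes, 11 were higher in the sham library and 0 in the denervated library, with medians of 1.203 and 0.70. The shares of higher genes over all genes tested were 17% and 5.15% there, so 0 of 16 is near the share of the denervated library. mt-Co2 had 5457 CPM in BA nuclei, 15406 in the others and 76584 in barcodes with under 200 genes. RNA made inside mitochondria is not part of a nucleus, and the filter on mitochondrial UMIs acts on these genes. In the whole sets, mitochondrial UMIs were 3.12% in BA nuclei, 7.98% in the other kept nuclei and 43.4% in barcodes with under 200 genes. The medians per barcode were 2.76%, 6.28% and 8.11%, so the summed levels of the last set, to which no mitochondrial filter was applied, were far from its typical barcode.

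Of 12 genes listed for futile cycles, 10 had under 10 CPM in BA nuclei. The share of all genes under that level was not computed, so the count is not read as a trait of this list. Of the 23041 genes in the table, 5362 outside the selection had at least 50 CPM in either set. Atp2a2, the calcium pump, was the listed gene that reached the 50 CPM needed to be counted, at 236 against 174 CPM (0.44). Below that level, and outside the counts, Ckb, the cytosolic creatine kinase, had 5.06 CPM against 31.5 (-2.64, interval -3.17 to -2.15) and Alpl, a phosphatase, 7.46 against 43.0 (-2.53). PC nuclei had 264 CPM of Alpl. Gatm and Gamt, which make creatine, were at 1.39 and 1.26 CPM, from 11 and 10 UMIs.

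Of 9 secreted factors measured, 5 were higher and 2 lower, with a median of 1.34. Vegfa, the vessel growth factor, had 1301 CPM against 371 (1.81), Nrg4 had 701 against 186 (1.92) and Nampt 367 against 124 (1.56). Leptin (Lep), better known from white fat, had 126 against 37.8 CPM (1.73). Cfd, adipsin, was level at 174 and 183 CPM, and the barcodes with under 200 genes had 185.

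Of 15 receptor genes measured, 6 were higher and 4 lower, with a median of 0.98. Kit, the receptor of stem cell factor, had 319 CPM against 93.1 (1.78, interval 1.65 to 1.91), 46.3 in EC nuclei and 24.2 in barcodes with under 200 genes. A Kit UMI was found in 39.4% of BA nuclei, and in 20.9% after thinning, against 3.74% of thinned EC nuclei. Ghr, the growth hormone receptor, had 1890 against 953 CPM (0.99), Dag1, dystroglycan, 551 against 278 (0.98), Ptger3 473 against 134 (1.81) and Erbb4, a receptor of neuregulins, 332 against 95.3 (1.80). Bmpr1a was higher at 160 against 64.8 CPM (1.30) and Bmpr2 lower at 99.6 against 206 (-1.05). Ephb2, at 16.2 and 10.7 CPM, was outside the counts. Igf1r and S1pr1 were far lower, at 27.4 against 305 (-3.48) and 6.95 against 151 (-4.44).

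Clock genes were mostly level: of 8 measured, 2 were higher and 0 lower, with a median of 0.47. Tef, a circadian transcription factor, was among the higher ones, at 302 against 140 CPM (1.11). Rora and Clock were at 0.23 and 0.09. Of 9 immediate early genes, which respond to stimuli within minutes and also to dissociation of tissue, 0 were higher and 7 lower, with a median of -2.19. Egr1 had 60.7 against 592 CPM (-3.29) and Fos 17.6 against 160 (-3.19), while Jund and Jun were within 2-fold at -0.59 and -0.41. Of 11 heat shock genes, 10 were within 2-fold and Hspb1 was lower, at 344 against 1092 CPM (-1.67). Their median of -0.43 turned to 0.39 in nuclei matched on UMIs. In the sham library 2 of the 11 were lower and in the denervated library 7, with medians of -0.67 and -1.13. Over all genes tested, 19.3% were lower in the sham library and 15% in the denervated library, so the sham count is near its share. Nuclear long noncoding RNAs were led by Malat1, the gene with the most UMIs in BA nuclei, with 25736 CPM against 16555 (0.64), and Neat1, with 5336 against 1992 (1.42). Meg3 was at 12.4 against 288 CPM (-4.54), and PC nuclei had 2769.

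Of 4 white adipocyte markers measured outside the selection, 2 were higher and 0 lower. The higher ones were Lep, given above, and Acvr1c, an activin receptor, with 305 against 93.9 CPM (1.70). Car3, a carbonic anhydrase, was within 2-fold at 1067 against 602 CPM (0.83), as was Npr3 at 173 against 104 (0.73). Agt and Nnmt were under 50 CPM in both sets and outside the counts. Nnmt had 2.02 CPM in BA nuclei. No Agt UMI was found among 7909097, which allows up to 0.379 CPM (3 UMIs of the total).

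Among single genes, the largest ratios belonged to genes with few UMIs. Of the 15 largest, 9 were protein-coding, 4 antisense and 2 long intergenic RNAs, with log2 ratios from 2.12 to 2.38. Cib4, a calcium-binding protein gene, had 59.8 CPM against 11.5 (2.38, interval 2.03 to 2.75). A530065N20Rik, a long noncoding RNA, had 242 against 50.2 CPM (2.27) and A330032B11Rik, antisense, 182 against 38.1 (2.26). Gm8126, Zfp641, Pkd2l2, Acsm3, Plet1os, Gm32569, Fam186a, Gm35552, Cabcoco1 and Gm17276 lay between 2.12 and 2.35. Esrrg and Kng2, a kininogen, were the ones with the most UMIs, 735 and 475 CPM, and a Kng2 UMI was found in 51.3% of BA nuclei. Antisense RNAs and overlapping genes can share reads, and strand use in the counting was not given in the sources used here.

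Ranked over nuclei with no adipocyte UMI, an order added after the data had been seen, Pkd2l2 had 101 CPM against 1.39 (6.18, interval 4.63 to 8.47), from 802 UMIs in BA nuclei and 3 in the 3341 nuclei compared. The long noncoding RNA 4933406I18Rik had 1023 against 36.7 CPM (4.80), a value inside that interval, so the order of the 2 is not settled. These nuclei were themselves defined by having 0 UMIs of selecting genes. Lncbate1, a noncoding RNA named for brown fat, was among these 15, at 522 against 22.8 CPM (4.52), and so was E2f2 at 122 against 5.11 (4.57).

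The 10 smallest ratios were all of protein-coding genes, between -5.41 and -5.94. 4930578C19Rik had 1.52 CPM, from 12 UMIs, against 93.3 (-5.94), and Gvin1, an interferon-inducible GTPase gene, 1.77 against 101 (-5.83). Cald1, caldesmon, had 9.74 against 495 CPM (-5.67) and Wipf1, an actin regulator of blood cells and endothelium, 7.71 against 332 (-5.43). Clec1a, Fam20a, Itpripl2, Gm12185, Gm4070 and Rcsd1 completed the set. All 10 were at 48.5 CPM or more in EC nuclei. With 9.74 CPM or less in BA nuclei, they passed the 50 CPM minimum only through the other nuclei. EC nuclei held 3280741 of the 6530107 UMIs of those nuclei, so their level was partly fixed in advance. Cald1, Fam20a, Itpripl2 and Rcsd1 were higher in PC than in EC nuclei, at 1396, 222, 230 and 235 CPM. The remaining genes of the set were lower in PC than in EC nuclei.

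The same selection was made in the other libraries, where 2853 of 14027 nuclei (20.3%) after the sham operation and 3953 of 10462 (37.8%) after denervation qualified. Their median depths were 1459 and 1000 UMIs. In the sham library 916 of 5380 genes (17%) were 2-fold higher in BA nuclei and 1038 (19.3%) lower. In the denervated library 261 of 5067 (5.15%) were higher and 758 lower (15%). Of the 931 genes higher in the untreated library, 622 were higher in the sham library, which is 66.8% of the first list and 67.9% of the second, and 251 in the denervated library, 26.96% and 96.2%. The sign was kept in 918 and 910 of the 931. The same share over all genes tested was not computed, so these counts are not read as agreement between libraries. Of the 1134 lower genes, 813 and 636 were lower there. The rule fixed part of this, since it was the same in each library. List medians turned sign in some cases. In the sham library the median was -0.25 for receptors, -0.27 for white adipocyte markers and -0.05 for the creatine and calcium list. In the denervated library it was -0.31 for secreted factors, -0.06 for clock genes, -0.01 for nuclear long noncoding RNAs and -0.14 for Schwann cell markers, and 0.01 for receptors. Some of these medians hold different genes in each library. In the untreated and denervated libraries, 9 and 11 secreted factors were measured, 8 and 10 clock genes, and 1 and 2 Schwann cell markers.

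Levels within BA nuclei were far apart between libraries for some genes. Ucp1 had 346 CPM untreated, 413 after sham (394 to 433) and 321 after denervation (304 to 338). Kit had 319, 38.1 and 193 CPM. Fasn had 5614, 1470 and 4291 CPM, Acly 4124, 546 and 2384, and Ppp1r3b 4804, 1539 and 3184. Adrb3 went the other way, with 578, 1728 and 608 CPM. For Fasn, Acly, Ppp1r3b and Kit the order was untreated, denervated, sham, beyond the counting intervals. Other genes of the same lists were highest after denervation: Scd1 had 14127, 3903 and 15707 CPM, Acaca 6125, 2225 and 6639, and Gbe1 1250, 350 and 1426. The glycogen synthase gene Gys1 had 658, 823 and 754 CPM. Condition cannot be told apart from library.

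Variation among BA nuclei was described by the ratio of variance to mean. After thinning to 800 UMIs, 3978 nuclei and 1697 genes with a mean of at least 0.1 UMI remained, and the median of this ratio (Fano factor, 1 for pure counting) was 1.14, with 90% of genes between 1.05 and 1.41. It was 2 or more for 21 genes. The largest were Hspa1a at 4.44, Hspa1b at 3.82 and Hsp90aa1 at 3.70, with Hspb1 at 3.24. mt-Nd4, mt-Co2, mt-Cytb and mt-Atp6 were at 3.68, 3.08, 2.91 and 2.77, Scd1 at 3.64 and Malat1 at 3.47. Of these 10 genes, 4 were heat shock chaperones and 4 mitochondrial. The factor depends on the mean, so it does not rank genes of different levels by relative variation: Malat1 and Scd1 had means of 21.2 and 10.6 UMIs, while Ucp1 was at 1.55 with a mean of 0.276 and Kit at 1.14 with a mean of 0.252. Hspa1a and Hspa1b are nearly identical copies on chromosome 17, so the split of reads between them is uncertain.

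**Figure D4:**
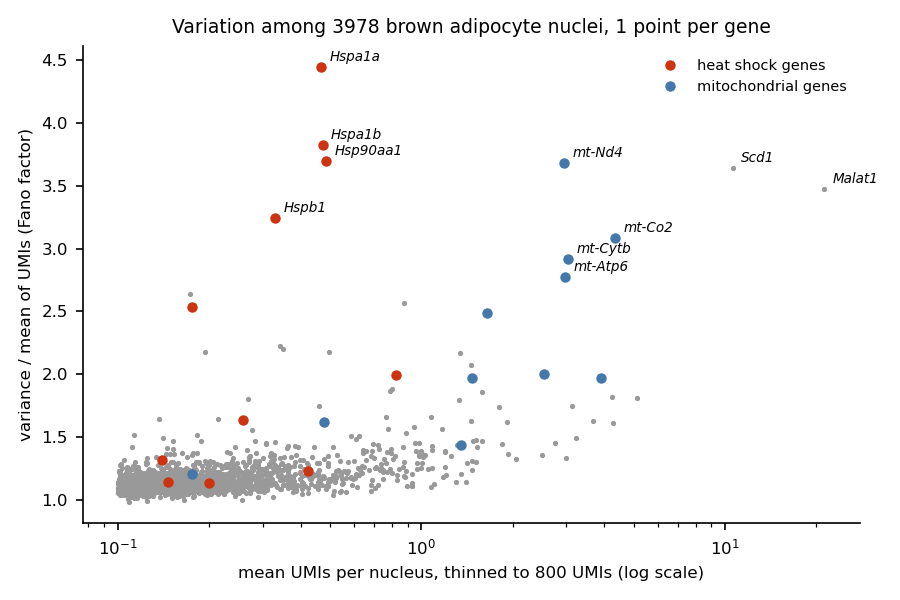
Fano factor (variance over mean of UMIs) against the mean UMIs per nucleus on a log axis, 1 point per gene, over 3978 BA nuclei thinned to 800 UMIs; red points are heat shock genes, blue points mitochondrial genes, and the 10 highest are named. Most genes lie near the median of 1.14, and Hspa1a reaches 4.44 at a mean of 0.467 UMIs.

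Correlations over thinned nuclei, given as a description, were near 0 in most lists. Their median over gene pairs was 0.45 for the mitochondrial genes, 0.13 for heat shock genes and 0.04 for fatty acid synthesis, where Fasn and Scd1 reached 0.31. The median over all 1686 genes outside the mitochondrial genome was -0.0004. Nuclei of 1 library share their depth and free RNA.

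Stress genes differed with depth among BA nuclei. The nuclei were split by total UMIs into 4 groups of equal number, with medians from 1087 to 2715. Hspa1a had 1574 CPM in the shallowest group, then 496, 207 and 130 in the deepest (log2 of deepest over shallowest -3.60, interval -3.76 to -3.44), and Atf3 fell from 97.5 to 7.12 CPM. Of 9 immediate early genes 8 differed at least 2-fold between the shallowest and deepest groups, and of 11 heat shock genes 6, while this held for 180 of all 5362 genes. Scd1 went the other way, from 9359 to 16949 CPM (0.86), Thrsp from 1178 to 2525 (1.10) and Kit from 224 to 341 (0.61), whereas Acaca fell from 7528 to 5331 (-0.50). Ucp1 was at 281, 339, 356 and 366 CPM. Mitochondrial UMIs were 3.58% in the shallowest group and 3.02% in the deepest. What depth stands for here was not tested.

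**Figure D5:**
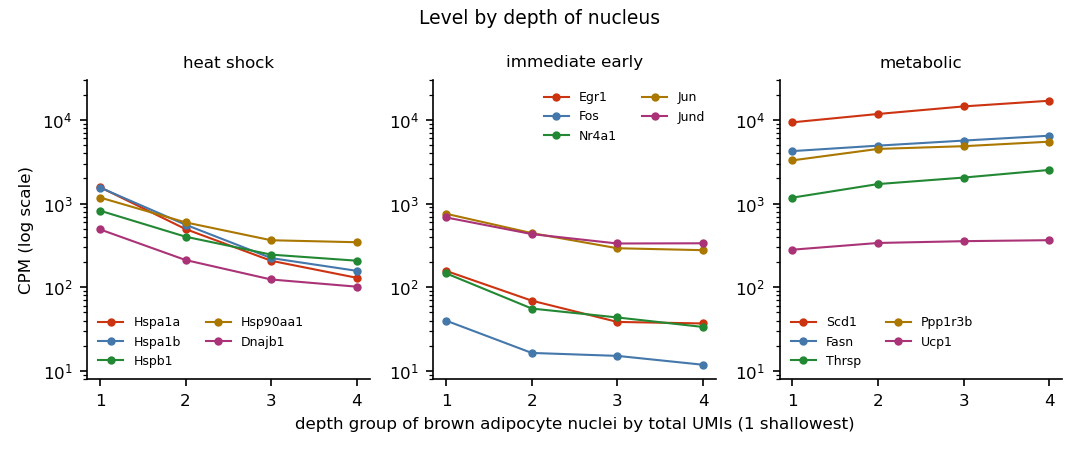
CPM (log axis) in 4 equal groups of the BA nuclei by total UMIs, from the shallowest (1) to the deepest (4), for heat shock, immediate early and metabolic genes; each point is the sum over 1040 or 1041 nuclei. Hspa1a falls from 1574 to 130 CPM while Scd1 rises from 9359 to 16949.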

How the data were processed

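Deposited counts were molecule (UMI) counts per gene and barcode, made by the authors with the BD WTA Rhapsody Analysis Pipeline 1.9, without normalization. Per the file headers, reads were aligned to GRCm38 with GENCODE vM19, while the submitters' processing notes name GRCh38. The untreated table has 13707 barcodes and 23041 genes. The header of the denervated table carries a run name (nKO) unlike its label, and no header was found in the sham table. The genotype given above is that of the labels, and what the run name stands for was not settled. The authors' later steps (background removal, clustering in Seurat 4.0.6) were not repeated. Members and gene lists were chosen with earlier results of these data known. UMIs were summed over nuclei, scaled to CPM, and compared as log2 ratios with exact conditional binomial intervals (Python 3.11.15, numpy 2.4.6, scipy 1.17.1). No count model was fitted, and CPM of different genes was not divided by length. The genes named were the selecting genes, up to 4 per list with the most UMIs plus list genes at least 4-fold different, genes the study follows, the 15 largest and 10 smallest ratios, and the 10 highest by Fano factor and by UMIs; others were chosen after their values were seen. Positions came from GENCODE (GRCm38) and promoters from RefSeq (GRCm38.p6). Alternatives changed the filters, the selection, the nuclei compared, the CPM minimum and the thinning. The scripts were tested on simulated data. Some genes that the rule would name are not reported here.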

Additional observations from a re-analysis of the deposited data

Results flagged for a closer look

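For 3 listed genes the log2 ratio of BA nuclei over the other kept nuclei had opposite signs in the untreated and denervated libraries, with both counting intervals clear of 0 and at least a 2-fold difference in 1 of the libraries. Smaller changes of sign were not collected. Gpam, which adds the first fatty acid to glycerol phosphate, stood at 1.43 in the untreated library and at -0.25 (counting interval -0.44 to -0.07) after denervation. Dnajb1, a cochaperone, stood at 0.17 and -1.24 (-1.39 to -1.09), and Hsph1, of the heat shock protein 110 family, at 0.37 and -1.13 (-1.24 to -1.03). With 1 library per condition, the difference between libraries was not tested.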

How the results depend on the processing

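Each condition is 1 library, and counting intervals do not cover mice, pools or preparations. No paired analysis was possible because each condition is 1 library with no replicate to pair. The number of genes at least 2-fold higher (931) became 581 with at least 8 adipocyte UMIs, 557 with a ratio of 10 to endothelial and pericyte UMIs, 301 with nuclei matched on UMIs (1961 in each set), 1495 against EC nuclei, 5119 with no filter on low values and 43 at 4-fold. The number at least 2-fold lower (1134) became 5275 with no filter and 676 at 4-fold. The log2 ratio of Ucp1 (1.35) was 1.22 with at least 500 detected genes, 1.12 with 8 adipocyte UMIs, 1.001 with the ratio of 10, 2.05 against nuclei with no adipocyte UMI, 1.91 against EC nuclei, 0.88 in matched nuclei and 1.64 as a mean over nuclei. Lists with a median of at least 2-fold higher numbered 10, 6 with the ratio of 10 and 0 in matched nuclei. The share of BA nuclei with a Ucp1 UMI was 14.2% when thinned to 500 UMIs, and 36 genes had a Fano factor of 2 or more when thinned to 1500. Of 180 recomputed list medians, 177 kept their sign. The creatine and calcium list, whose value of 0.44 is Atp2a2 alone, turned to -1.21 at 10% mitochondrial UMIs and to -1.22 against nuclei with no adipocyte UMI, where Alpl also reached 50 CPM in the compared nuclei, so these medians hold different genes. The heat shock list turned to 0.39 in matched nuclei, and the cause was not tested.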
